A study of Mus musculus with 4 samples.

Results

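Malat1, Neat1 and Miat are long noncoding RNAs that stay largely in the nucleus, and Gas5, Snhg1, Snhg8, Snhg11 and Snhg12 are noncoding hosts of small nucleolar RNAs (snoRNAs). These 8 RNAs were picked by gene name from a table of 46072 genes, and 7 of the 8 were analysed. They are 3 nuclear-retained RNAs and 4 of the 5 hosts. Snhg1 was not analysed here. The data come from 4 poly(A) RNA-seq libraries, called replicates 1 to 4, of wild-type, untreated mouse brain vasculature. The labels call the cells endothelial and name laser capture, in which a laser cuts chosen cells from a tissue section, and the series title names immunolabelling and tissue fixed by perfusion. All 4 libraries form 1 group, so each comparison is between genes of the same libraries. Whether each library is a separate animal or a pool, and the strain, age and sex, are not in the labels, so a p-value here covers the spread of 4 samples that may be technical repeats.

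Malat1 lies at nuclear speckles, the stores of splicing factors, and Neat1 is the scaffold of paraspeckles, bodies that hold RNA-binding proteins in the nucleus. Miat, also called Gomafu, is a nuclear RNA known from neurons and carries repeats bound by the splicing factor SF1. The host genes are spliced, their introns are trimmed to snoRNAs that guide modification of ribosomal and other RNAs, and the spliced exons of several hosts are exported and broken down by nonsense-mediated decay. Gas5 is a host with a terminal oligopyrimidine start, a stretch of C and T at the first bases that is typical of ribosomal protein genes.

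Poly(A) selection holds RNAs by their A-rich 3′ ends, so those of Malat1 and Neat1 are shown first, in GENCODE M21 sequence (GRCm38, minus strand). Mature Malat1 is known to end without a usual poly(A) tail, at an A-rich tract encoded in the genome, and long Neat1 ends in the same manner. Capitals mark that tract in the lines named A-rich, and AATAAA, the signal for polyadenylation, in the lines named signal.
Malat1, A-rich tract, chr19:5795972-5796039: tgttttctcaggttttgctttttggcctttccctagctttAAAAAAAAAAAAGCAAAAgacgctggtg
Malat1, signal at the annotated end, chr19:5795690-5795749: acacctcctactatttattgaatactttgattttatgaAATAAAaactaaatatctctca
Neat1, A-rich end of the long form, chr19:5824708-5824767: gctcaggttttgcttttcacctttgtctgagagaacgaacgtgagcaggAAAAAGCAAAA
Neat1, signal at the short form's end, chr19:5842307-5842366: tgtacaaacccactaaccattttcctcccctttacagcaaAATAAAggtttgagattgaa

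The Malat1 tract was 18 bases long and lay 292 bases before the end of the longest annotated transcript, which runs on to an AATAAA 22 bases from its end. The long Neat1 transcript of 20771 bases stopped at its A-rich tract, and the short one of 3004 bases had AATAAA 20 bases from its end. Upstream of both tracts lay the same 16 bases, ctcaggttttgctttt, the longest stretch shared between the bases around the Malat1 tract and the end of long Neat1. Of 18930 long noncoding transcripts, 8 ended in a run of at least 3 A, then GC, then at least 3 A, or 0.0423%. AATAAA, searched on the transcript strand only, stood in the last 60 bases of 30% of 18927 long noncoding transcripts of that length or more.

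Miat is shown for its repeats, with each ACTAACC in capitals (GRCm38, minus strand). The spliced transcript of 9163 bases held 5 copies on its own strand, of which the first 3 lie within 107 bases. At least 5 copies were found in 3 of 223 long noncoding transcripts of 5000 bases or more (1.35%), and long Neat1 held 2 and Malat1 0.
Miat, chr5:112217333-112217459: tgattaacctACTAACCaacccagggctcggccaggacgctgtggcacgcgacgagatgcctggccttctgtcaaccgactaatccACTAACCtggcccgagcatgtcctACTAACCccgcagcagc

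For the hosts, 30 bases on each side of the RefSeq start site (GRCm38.p6) show the oligopyrimidine stretch, with Malat1 for contrast. Capitals mark the longest run of C or T that touches the bases from 10 before to 15 after the start. Where several runs are equally long, the first is marked. The start is the 31st printed base in every line.
Snhg12, chr4:132308648-132308707, plus strand: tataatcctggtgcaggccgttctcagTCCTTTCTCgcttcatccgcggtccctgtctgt
Snhg8, chr3:123508307-123508366, minus strand: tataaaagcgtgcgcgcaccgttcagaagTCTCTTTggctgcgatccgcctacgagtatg
Gas5, second start, chr1:161035136-161035195, plus strand: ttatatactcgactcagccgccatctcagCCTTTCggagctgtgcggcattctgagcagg
Snhg11, chr2:158375683-158375742, plus strand: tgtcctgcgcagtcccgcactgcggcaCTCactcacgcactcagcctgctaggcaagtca
Malat1, chr19:5802643-5802702, minus strand: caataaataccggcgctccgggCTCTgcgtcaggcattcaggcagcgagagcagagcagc

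The run was 9 bases long at Snhg12, 7 at Snhg8 and 6 at the second Gas5 start, and each spanned the start site. At Malat1 it was 4 and ended before the start. At Snhg11 it was 3, and further runs of that length lay after the start, so its longest run has no single position. Runs of at least 9, 7 and 6 bases occurred at 10.7%, 22.3% and 33.1% of the 32851 promoters in that table, where the median was 5. Such runs are thus common, and the match by itself is a description of these letters. Miat, which is not known as a snoRNA host, also had a run of 7, and the first of the 2 Gas5 starts had a run of 3.

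Values are the authors' FPKM (fragments per unit of transcript length, relative to the mapped fragments of the library), which sum to 448678 to 482882 per library. The number of reads is unknown, which leaves no counting interval, and the number of libraries limits the precision. Genes of at least 1 FPKM numbered 13344 to 13866 per library. Against the label, neuronal, astrocyte and oligodendrocyte markers were far above endothelial ones. The median of 17 endothelial markers was 4.86 to 6.35 FPKM, that of 10 neuronal markers 116 to 119, of 8 astrocyte markers 89.4 to 105 and of 8 oligodendrocyte markers 127 to 166. It was 2.88 to 3.67 for 8 pericyte, 25.2 to 34.95 for 8 microglial and 17.4 to 29.1 for 7 choroid plexus markers. Of the endothelial markers 14 of 17 lay above 1 FPKM and 1 below (limma, adjusted p under 0.05), where 47.7% of all genes tested lay above and 40.1% below. Their summed level was 255 to 328 FPKM, against 2340 to 2938 for the neuronal ones. The cells that the 7 RNAs came from were not tested, and more cells of a type and more RNA per cell cannot be told apart.

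The 7 genes lie on 6 chromosomes (GENCODE M21, GRCm38). Malat1 (ENSMUSG00000092341, chr19:5795690-5802672) and Neat1 (ENSMUSG00000092274, chr19:5824708-5845478) lie on the minus strand of the same chromosome. Miat (ENSMUSG00000097767, chr5:112213228-112229395) and Snhg8 (ENSMUSG00000104960, chr3:123507552-123508404) are also on the minus strand. Gas5 (ENSMUSG00000053332, chr1:161034422-161038539), Snhg11 (ENSMUSG00000044349, chr2:158375638-158386145) and Snhg12 (ENSMUSG00000086290, chr4:132308623-132311024) are on the plus strand. Gas5 overlaps Zbtb37 on the opposite strand, which was listed at no more than 0.298 FPKM. Inside Malat1 an opposite-strand gene, Gm37376, was listed at 0 in replicates 1 to 3 and at 12.2 FPKM in replicate 4.

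Malat1 was the highest of the 7 RNAs and of all 8268 genes annotated as long noncoding. It measured 463, 321, 521 and 476 FPKM in replicates 1 to 4, or 445 ± 86.6 (SD, n = 4), rank 112 of all genes. Replicate 2 was the lowest and the other 3 lay close together. Neat1, at 10.7, 6.87, 11.4 and 14.4 FPKM, averaged 10.8 ± 3.10 and ranked 71 among the long noncoding genes. Replicate 2 was again the lowest, and replicate 4 the highest. Miat, at 3.61, 2.56, 4.43 and 5.37 FPKM, averaged 3.99 ± 1.198 and ranked 173. It was the lowest of the 7, with the same order of libraries as Neat1.

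Among the hosts, Gas5 was the highest and the steadiest of the 7 RNAs. It measured 135, 122, 144 and 143 FPKM, or 136 ± 10.05 (SD, n = 4), rank 3 among the long noncoding genes, and its SD was 7.39% of its mean. Snhg11, a host known to be abundant in neurons, measured 81.3, 57.0, 99.8 and 79.7 FPKM, or 79.4 ± 17.5. Replicate 2 was the lowest and replicate 3 the highest, as for Malat1. GENCODE M21 lists the gene as protein coding, so it has no rank among the long noncoding ones. Snhg12, the host of Snora44, Snora61 and Snord99, measured 7.62, 11.8, 15.6 and 12.9 FPKM, or 11.99 ± 3.34, with replicate 1 the lowest. Snhg8, the host of Snora24, measured 6.74, 7.49, 8.71 and 10.4 FPKM, or 8.33 ± 1.59, also lowest in replicate 1. The 5 highest genes annotated as long noncoding were Malat1, the imprinted RNA Meg3 at 142.9 ± 39.01 FPKM, Gas5, Cct6a at 95.0 ± 9.58 and Pantr1 at 86.8 ± 9.52. Cct6a is known as a gene of a chaperonin subunit, although this annotation release classes it as a processed transcript.

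**Figure D1:**
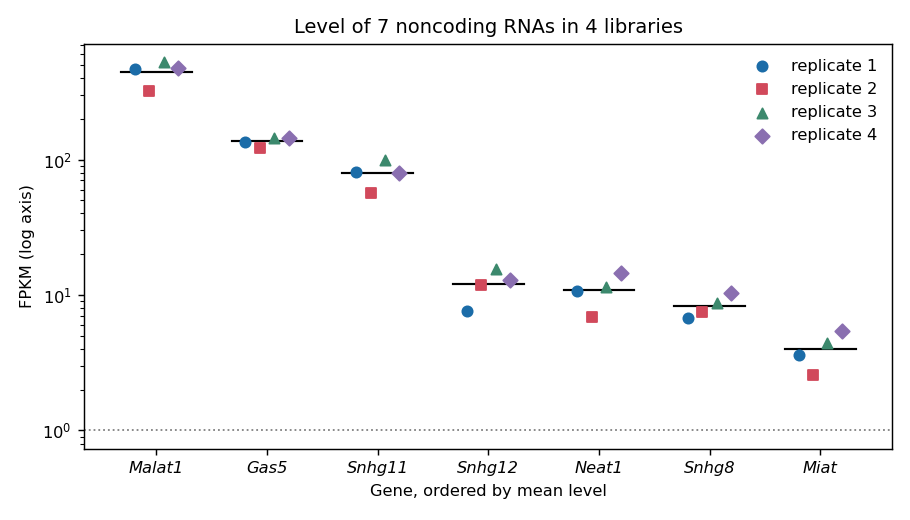
FPKM of 7 noncoding RNAs on a log axis, 1 symbol per library (replicates 1 to 4) and a bar at the mean; the dotted line is 1 FPKM. Malat1, Gas5 and Snhg11 stand apart from the other 4, whose values run from 2.56 to 15.6 FPKM.

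Malat1, Gas5 and Snhg11 stood in the same order in every library, while the position of Neat1 relative to Snhg12 and Snhg8 varied between libraries. Of the 6 steps between neighbours in the order, 4 had the same sign in 4 of 4 libraries and ranges that did not overlap. Malat1 exceeded Gas5 by 2.63 to 3.63 times, Gas5 exceeded Snhg11 by 1.44 to 2.14 times, Snhg11 exceeded Snhg12 by 4.83 to 10.7 times, and Snhg8 exceeded Miat by 1.87 to 2.93 times. For each of these the exact sign-flip test over libraries (2-sided) gave p = 0.125, the smallest that 4 libraries allow, so it cannot reach 0.05. The ratios are of FPKM in poly(A) libraries, and how well poly(A) selection held each RNA was not tested. Snhg12 and Neat1 could not be told apart, with a difference of 0.13 ± 0.52 in log2(FPKM + 1) (SD, n = 4), positive in 2 of 4 libraries (exact p = 0.75). Neat1 and Snhg8 overlapped too, at 0.32 ± 0.30, positive in 3 of 4 libraries (exact p = 0.25). Snhg12 was above Snhg8 in 4 of 4 libraries, by 1.13, 1.57, 1.80 and 1.24 times, although their ranges overlapped.

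All 7 RNAs lay above 1 FPKM (limma, adjusted over the 25206 genes above 0 in any library), as did 47.7% of the genes tested, while 40.1% lay below. A level of 1 FPKM is thus one that many genes pass. The log2(FPKM + 1) difference from 1 FPKM ran from 1.29 ± 0.16 (SE) for Miat (limma, adjusted p = 0.000774) to 7.78 ± 0.13 for Malat1 (adjusted p = 2.83e-07). On this scale differences of low genes are understated. For Miat the difference was 1.93 with a pseudocount of 0.01 (limma, adjusted p = 8.16e-05). With each library rescaled to one common sum it was 2.22 (limma, adjusted p = 8.97e-05). That rescaling raised genes of at least 1 FPKM by a median of 1.003 on the log2 scale. The fixed level of 1 then stood for a lower level of the original values.

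Set against the endothelial markers of their own library, 6 of the 7 RNAs were higher and Miat was lower. Of all genes tested, 27.2% were above the endothelial marker median and 65% below it (limma, adjusted p under 0.05). Malat1 was 78.0 ± 16.4 times the median (SD, n = 4), Gas5 23.8 ± 2.81 times and Snhg11 13.9 ± 3.03 times, each in 4 of 4 libraries. With each gene's own variance, the adjusted p was 0.000247 for Malat1 and for Gas5 and 0.000556 for Snhg11. Those p-values are given because the variance shared across genes had an infinite weight in the limma fit, which makes its p-values too small. Snhg12 was 2.06 ± 0.369 times the median, 0.91 higher in log2(FPKM + 1) (limma, adjusted p = 3.22e-11, and 0.00792 with its own variance). Neat1 was 1.89 ± 0.529 times the median and 0.78 higher (limma, adjusted p = 3.19e-08, and 0.0353 with its own variance). Against the mean of the markers, Snhg12 was 0.52 higher (limma, adjusted p = 0.00096) and Neat1 0.38 higher (adjusted p = 0.0168).

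Snhg8 and Miat were the closest to the endothelial median, and their calls depended on the settings. Snhg8 was 1.45 ± 0.186 times the median and 0.46 higher in log2(FPKM + 1) (limma, adjusted p = 0.00212, and 0.0135 with its own variance). That call was lost without replicate 4 (adjusted p = 0.0522), against the mean of the markers (difference 0.06, adjusted p = 0.622) and against markers of at least 1 FPKM alone (0.24, adjusted p = 0.169). Miat was 0.694 ± 0.185 times the median, at -0.46 (limma, adjusted p = 0.0102). Leaving out replicate 2 ended that call (-0.31, adjusted p = 0.141), as did the gene's own variance (adjusted p = 0.0758). Under the same changes of marker summary as for Snhg8, Miat was further below, at -0.86 against the mean (adjusted p = 0.000142) and at -0.68 against markers of at least 1 FPKM (adjusted p = 0.000985).

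Malat1 and Gas5 also exceeded the median of the neuronal markers, and the other 5 RNAs lay below it in all 4 libraries. Malat1 was 3.81 ± 0.773 times the neuronal median (SD, n = 4) and Gas5 1.16 ± 0.0960 times, both higher in 4 of 4 libraries. Snhg11 was 0.679 ± 0.156 times that median, and Snhg12, Neat1, Snhg8 and Miat were 0.102, 0.0927, 0.0711 and 0.0341 times it on average. Gas5 was 1.36 times the astrocyte and 0.955 times the oligodendrocyte median on average. Snhg11 was 0.796 and 0.565 times these medians, but 2.78 times the microglial and 3.17 times the choroid plexus one. These are levels beside marker levels and do not place an RNA in a cell type.

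The 4 RNAs with the longest annotated transcripts were lowest in replicate 2, by similar amounts. The longest annotated transcript need not be the form measured, and Neat1 also has a short form of 3004 bases. Relative to its mean over the 4 libraries, log2(FPKM + 1) in replicate 2 was -0.55 for Neat1, -0.46 for Miat, -0.45 for Malat1 and -0.45 for Snhg11, whose longest transcripts have 20771, 9163, 6983 and 5864 bases. Gas5, with 2556 bases, was also lowest in replicate 2, but at -0.15. The ratio of Malat1 to Snhg11 varied little, at 5.70, 5.64, 5.22 and 5.98 in replicates 1 to 4. Neat1 exceeded Miat by 2.97, 2.69, 2.56 and 2.68 times. By contrast, the ratio of Gas5 to Snhg12 ran from 9.18 to 17.7, the highest in replicate 1, where Snhg12 stood at -0.55.

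Genes with long transcripts were, in their median, also lower in replicate 2, to a smaller extent. The median deviation in replicate 2 was -0.21 over the 2741 genes of at least 1 FPKM with a transcript of 5000 bases or more, against 0.0047 over the 2323 genes under 1500 bases. Replicate 2 was the lowest library for 54.0% of these long genes and for 27.5% of all 13586 genes of at least 1 FPKM with a known length. A deviation of -0.45 or less in replicate 2 was seen in 14.8% of the long genes and 5.62% of all. That cut is the value of Snhg11, the least low of the 4 RNAs with the longest annotated transcripts, so all 4 pass it by construction. Among the other 608 long noncoding genes of at least 1 FPKM, the median was -0.043 and 12.99% reached the cut. In replicate 2 the mitochondrial-chromosome genes also held the smallest share of summed FPKM, 8.03% against 10.8% to 12.5%. The summed choroid plexus markers were 11697 FPKM there against 14294 to 17193. The summed neuronal ones were 2938 against 2340 to 2506 and the oligodendrocyte ones 6191 against 4929 to 5704. Such sums are weighted to the highest genes, as Snap25 alone was 1696 FPKM there against 1263 to 1395. By the median, the neuronal markers were nearly level, at 119 against 116 to 117. The oligodendrocyte median was 166 against 127 to 145, and the choroid plexus median 17.4 against 25.6 to 29.1. The part of each of these in the low values of the 4 RNAs was not tested. Snhg8, of 776 bases, was lowest in replicate 1, as were 41.8% of the genes under 1500 bases and 25.0% of all 13586. Snhg12, of 1538 bases, was also lowest in replicate 1, at -0.55.

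**Figure D2:**
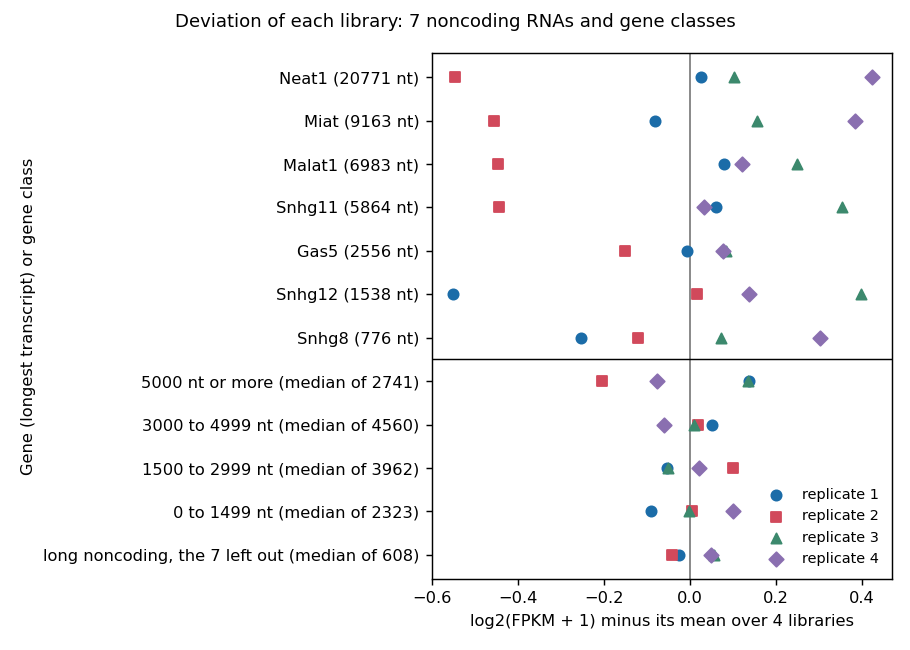
Log2(FPKM + 1) minus its mean over the 4 libraries, per library, for 7 noncoding RNAs ordered by their longest transcript and, below the line, the median over gene classes. Replicate 2 lies at -0.45 to -0.55 for the 4 longest RNAs and at -0.21 for genes of 5000 bases or more.

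The spread of several of the RNAs was large for their level. Among the 500 genes nearest in mean log2(FPKM + 1), the SD of Snhg11 (0.33) exceeded that of every one, that of Malat1 (0.31) 97.4%, of Snhg12 (0.40) 96% and of Neat1 (0.40) 95.4%. Gas5 (0.11) exceeded only 25.8%, and Miat and Snhg8 lay at 75.4% and 62.8%. The 500 genes were matched on level and not on transcript length, although genes with long transcripts were lower in replicate 2 in their median. With 4 libraries these percentages are descriptions.

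The snoRNAs inside the hosts were listed near 0 while the host genes had means of 8.33 to 136 FPKM. GENCODE places 10 snoRNA genes in Gas5, 5 in Snhg12, 2 in Snhg11 and 1 in Snhg8, among them overlapping pairs at one position. None of the 18 reached a mean of 1 FPKM. In Gas5, Snhg8 and Snhg11 the highest value in any library was 0.113 FPKM, for Snora24. In Snhg12 the highest was Snora16a, at 0.366, 0.0363, 1.23 and 0.0348 FPKM. Of all 1507 annotated snoRNA genes, 19 had a mean of at least 1 FPKM and 1166 were listed at 0 in all 4 libraries. snoRNAs are short and have no poly(A) tail, so a value near 0 in poly(A) libraries is no measure of their amount. The FPKM of a gene shorter than a sequenced fragment is uncertain as well. The 8 small conserved segments that GENCODE lists as separate genes inside Malat1, Neat1 and Miat were at most 0.0408 FPKM.

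The snoRNAs themselves show what these introns hold, here for 3 box C/D snoRNAs, which guide methylation, and 1 box H/ACA snoRNA, which guides pseudouridylation (GENCODE M21, GRCm38). Capitals mark the C box TGATGA and the D box CTGA, or the ACA box that stands 3 bases from the end.
Snord47 in Gas5, chr1:161038082-161038158, plus strand: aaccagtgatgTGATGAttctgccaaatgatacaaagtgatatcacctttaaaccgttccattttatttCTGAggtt
Snord80 in Gas5, chr1:161037601-161037681, plus strand: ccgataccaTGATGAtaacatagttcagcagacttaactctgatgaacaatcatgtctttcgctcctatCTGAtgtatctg
Snord99 in Snhg12, chr4:132310691-132310764, plus strand: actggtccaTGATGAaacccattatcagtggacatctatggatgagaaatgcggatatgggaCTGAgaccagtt
Snora24 in Snhg8, chr3:123507937-123508066, minus strand: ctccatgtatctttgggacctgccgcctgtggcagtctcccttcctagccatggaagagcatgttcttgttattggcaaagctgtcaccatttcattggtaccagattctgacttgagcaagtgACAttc
On the transcript strand, 26.1% of the 1507 annotated snoRNAs held TGATGA, 35.4% held CTGA in their last 20 bases and 18.3% held ACA at that place. The means of these 4 snoRNA genes were 0.0307, 0.000744, 0.00345 and 0.0413 FPKM.

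**Figure D3:**
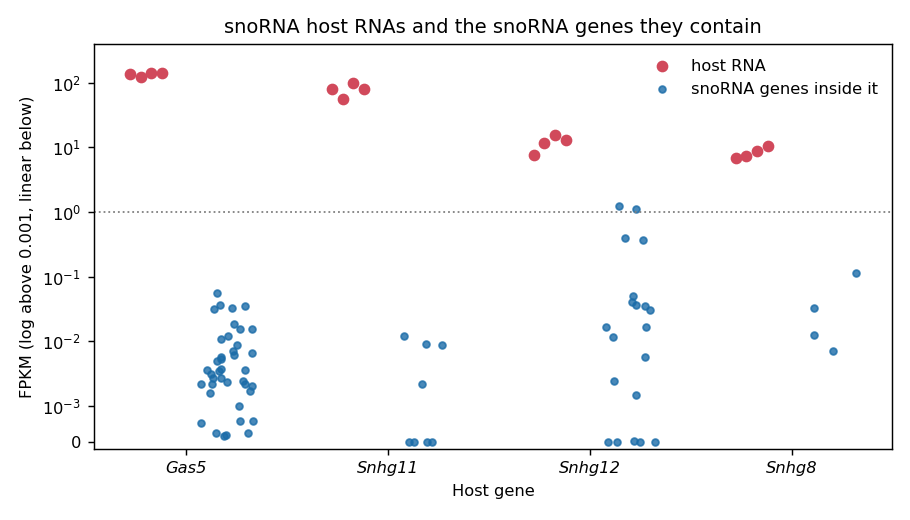
FPKM of 4 snoRNA host RNAs (red, 4 libraries each) and of the snoRNA genes inside them (blue, 1 point per gene and library), on an axis that is logarithmic above 0.001 and linear below; the dotted line is 1 FPKM. The hosts lie at 6.74 to 144 FPKM, and 2 of the snoRNA points pass 1 FPKM, both in Snhg12.

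The other snoRNA hosts listed differed in level between the noncoding and the protein-coding list. Both lists were chosen by name, and the annotation tags 1600 genes as hosts of small noncoding RNAs. The lists thus do not stand for all hosts of either kind. Of 15 other noncoding hosts 14 were matched, and 10 of the 14 lay above 1 FPKM and 1 below (limma, adjusted over all genes), beside 47.7% and 40.1% of all genes tested. Their median was 5.32 ± 0.852 FPKM (SD, n = 4), against 1.43 ± 0.107 over all genes tested. Snhg3, at 36.7 ± 4.41 FPKM, Snhg20, at 33.3 ± 4.66, and Snhg6, at 24.6 ± 1.48, led the list, below Gas5 and Snhg11 and above Snhg12 and Snhg8. The lowest was Snhg7, at 0, 0.0741, 0.988 and 0.0728 FPKM in replicates 1 to 4. All 12 listed protein-coding hosts lay above 1 FPKM, with a median of 113 ± 10.2 FPKM. The chaperone Hspa8 measured 693 ± 97.0 FPKM, the translation-related Tpt1 301 ± 14.5, the helicase Eif4a2 240 ± 21.3 and the nucleolar protein Ncl, the lowest of them, 23.3 ± 3.24. Gas5 thus lay among the listed protein-coding hosts in level, and Snhg8 and Snhg12 below all 12.

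For the listed proteins that work with these RNAs, every mRNA was measured, and protein was not. Levels in this paragraph are those of the mRNAs that encode the proteins. They are set beside the 47.7% of all genes tested that lay above 1 FPKM and the 40.1% below. The all-gene median was 1.43 ± 0.107 FPKM. The 7 paraspeckle proteins lay above 1 FPKM (limma, adjusted over all genes), with a median of 15.5 ± 3.41 FPKM (SD, n = 4), and Hnrnpk (187 ± 22.4 FPKM), Nono (33.5 ± 4.12) and Pspc1 (15.9 ± 3.63) were the highest and Rbm14 (6.03 ± 1.75) the lowest. All 11 nuclear speckle proteins lay above 1 FPKM, with a median of 28.7 ± 3.96. The splicing factors Srsf5 (156 ± 8.20 FPKM), Srsf3 (87.0 ± 8.87) and Srsf7 (65.1 ± 6.68) led them, and U2af2 (12.5 ± 0.366) was the lowest. Malat1 exceeded every one of these 11 mRNAs in mean FPKM, and Neat1 lay below all but Rbm14 among the 7 paraspeckle ones. Of the 8 proteins that form snoRNA particles, all lay above 1 FPKM, with a median of 27.6 ± 3.94. Snu13, listed under its older symbol Nhp2l1, measured 126 ± 17.3 FPKM, Nop10 73.6 ± 4.93, Nop56, itself a snoRNA host, 52.0 ± 2.60 and Nop58 4.49 ± 0.963. Of 10 nonsense-mediated decay factors 9 lay above 1 FPKM and 0 below, with a median of 5.10 ± 0.777. Upf3a (22.8 ± 3.68 FPKM), Upf3b (9.94 ± 1.52) and Smg9 (6.97 ± 1.42) were the highest, and the kinase Smg1, at 1.09 ± 0.394, could not be told from 1 FPKM (limma, adjusted p = 0.787).

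**Figure D4:**
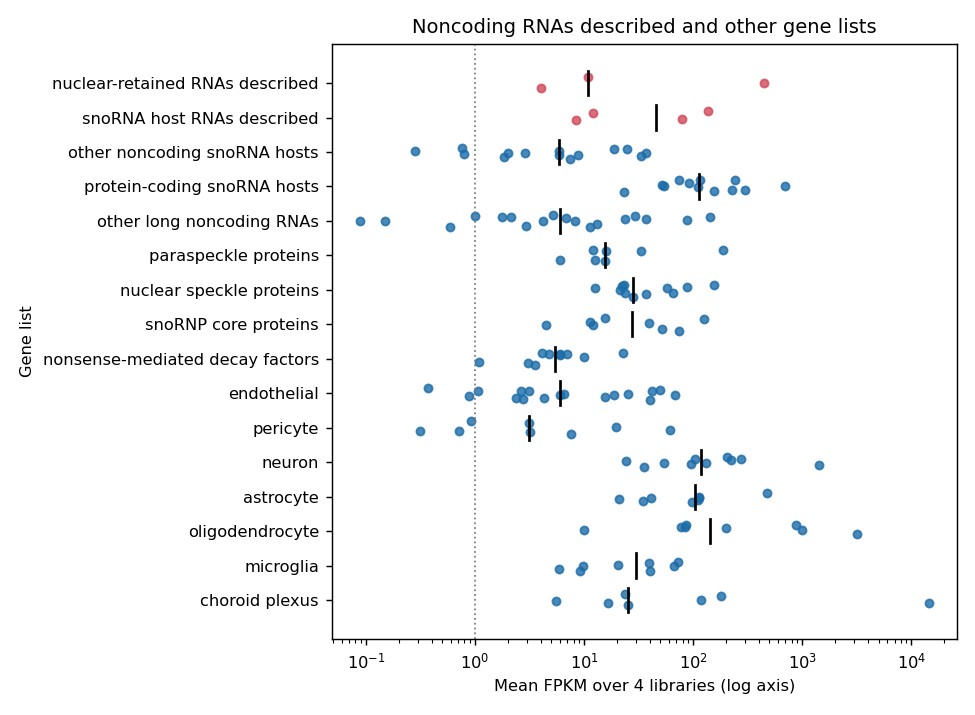
Mean FPKM over 4 libraries on a log axis, 1 point per gene, for the nuclear-retained RNAs and snoRNA hosts described here (red) and for other gene lists (blue); the black bar is the median of the gene means and the dotted line 1 FPKM. The 3 nuclear-retained RNAs span 3.99 to 445 FPKM.

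The genes closest to each RNA over the 4 libraries were found as those with the smallest root mean square difference in log2(FPKM + 1), out of 13653 others of at least 1 FPKM. For Gas5 this was the ribosomal protein gene Rps2, at a difference of 0.027, and for Snhg11 the ribosomal protein gene Rpl7a, at 0.15. For Malat1 it was Eef1a1, a translation elongation factor, at 0.16, and for Snhg12 Bcl11a, a transcription factor, at 0.059. For Neat1 it was A830039N20Rik, at 0.064, for Miat 4833427G06Rik, at 0.094, and for Snhg8 Gm13629, at 0.051. Eef1a1, Rps2 and Rpl7a have near-identical copies in the genome, so their values are uncertain. These distances are over 4 libraries of 1 kind and describe level and spread alone.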

How the data were processed

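The authors deposited 1 table of FPKM for 46072 genes and 4 poly(A) libraries, labelled as laser-captured mouse brain endothelial cells. Tools named, per the submitters' processing notes, were StringTie 2.2.1, HISAT2 2.2.1, bcl2fastq 2.20 and SAMtools, with build GRCm38. The sources used here give neither the annotation release, nor the strand setting, nor how reads with more than 1 match were handled. Without strand, a gene and its antisense partner may share reads. FPKM divides by transcript length, so the level of an RNA with a short and a long form, such as Neat1, depends on the length used. A value of 2e-06 FPKM for a short gene is below what 1 read gives at usual depths, so low values are not whole reads and depth is unknown.

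Positions, lengths and transcripts for 45137 genes were taken from GENCODE M21 (GRCm38), and start sites from RefSeq (GRCm38.p6), which matched 6 of the 7 RNAs. Where 2 genes share a symbol, the one with the longer transcript was used. Other symbols were matched by gene ID or RefSeq synonym.

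Tests used log2(FPKM + 1), a pseudocount of 1. limma 3.58.1 in R 4.3.3 tested each of 25206 genes, 2-sided with a mean-variance trend, against 1 FPKM and, within library, against the median of 17 endothelial markers, at a threshold of 0.05 after Benjamini-Hochberg adjustment. The endothelial fit gave infinite prior degrees of freedom, so each gene's own variance was added as an alternative after seeing the data. Neighbouring RNAs were compared by an exact sign-flip test. The code of the limma step was first tested on simulated data. Alternatives covered the pseudocount, scaling, filters, variance model, marker summary and each library left out. The RNAs and lists were chosen with earlier results of these data known. The text names the 3 highest and the lowest gene of each pathway list, the 5 highest long noncoding genes, the closest gene to each RNA and the snoRNA genes inside the hosts. The rule also takes the highest marker of each cell type, of which 1 is not reported here. The others were Ly6c1 at 68.2 FPKM, Vtn at 61.4, Snap25 at 1433, Aldoc at 471, Mbp at 3187 and Ttr at 14493. Figures were drawn with matplotlib 3.10.9.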

Additional observations from a re-analysis of the deposited data

Results flagged for a closer look

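Dixon's ratio compares 1 library with the rest, as the gap to the nearest value divided by the range. It was taken in 67 groups of 4 values, of the 7 RNAs and the genes under the naming rule given with the processing. Gm37376, Zbtb37 and Tsix, named elsewhere in the text, were not among these groups. A gene is given here where that ratio passed Dixon's 95% critical value. Chance flags about 1 in 20 such groups. None of the 7 RNAs passed it, and 4 other genes among these groups did. Snhg7 had a ratio of 0.925, with replicate 3 at 0.988 FPKM against 0 to 0.0741 in the others. Rpl7a had a ratio of 0.842, with replicate 2 at 57.4 FPKM against 77.4 to 81.2. Mir5117, annotated as a snoRNA gene in Gas5, had a ratio of 0.945 at values of at most 0.0107 FPKM. Snora44 in Snhg12 had a ratio of 1.0, being listed at 0 in all libraries except replicate 4, where it was 0.0499 FPKM.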

How the results depend on the processing

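Under the alternatives, all 7 RNAs stayed above 1 FPKM and the count of steps with 1 sign in all libraries was 4 to 5. Rescaling each library to one common sum raised the median of all tested genes by 0.74 on the log2 scale, and that of genes of at least 1 FPKM by 1.003, and changed none of these calls. The count of RNAs above the endothelial median ran from 5 to 6. The count below it, Miat, was 0 without replicate 2, so 0 to 1 with each library left out, and 0 with each gene's own variance. Counts of all genes below 1 FPKM moved to 5197 when a mean of 0.1 FPKM was required and to 30135 with no filter, and the count below the endothelial median moved to 37343 with no filter, since filters remove or add low genes by construction. No pairing of samples between groups was possible because all 4 libraries form 1 group. Differences between genes were taken within library in the sign-flip and endothelial tests. Unknown depth limits what can be said of values near 0.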

Other observations

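Of 18 other long noncoding RNAs that are known in the brain or the nucleus, 14 lay above 1 FPKM and 3 below (limma, adjusted over all genes), beside 47.7% and 40.1% of all genes tested, with a median of 6.22 ± 0.609 FPKM (SD, n = 4) against 1.43 ± 0.107 over all genes tested. Meg3, an imprinted RNA also retained in the nucleus, measured 141, 91.2, 185 and 155 FPKM in replicates 1 to 4, with replicate 2 the lowest, as for Malat1. Pantr1, at 86.8 ± 9.52 FPKM, was lowest in replicate 1. Rian, an imprinted snoRNA host of the same locus as Meg3, measured 36.8 ± 7.31 FPKM. Xist, the RNA that coats the inactive X chromosome, was the lowest of the list at 0.0882 ± 0.0973 FPKM. By library, Xist measured 0.194, 0.148, 0.0063 and 0.0047 FPKM in replicates 1 to 4. Its antisense partner Tsix measured 0.150 ± 0.0255.

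A gene annotated on the opposite strand inside Malat1, Gm37376 (chromosome 19, 5801941 to 5802393, GRCm38), was listed at 0 in replicates 1 to 3 and at 12.2 FPKM in replicate 4. It was chosen after its values were seen. Malat1 itself was 476 FPKM in replicate 4, and the strand setting is not stated, so reads of both genes cannot be told apart.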
